A study of Mus musculus with 11 samples.

Results

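In B16F10 mouse melanoma cells, 10 genes known from the cleavage-stage embryo were followed with and without an inhibitor of ATR: Zscan4d, the deubiquitinase genes Usp17le, Usp17lb and Usp17ld, the predicted genes Gm2022 and Gm5039, and the PRAME family genes Gm12794, Gm12800, Pramef25 and Pramef8. They are 10 of the 14528 genes in the deposited expression table. They were chosen from these data by their values with and without ATR inhibitor, so their ATRi against DMSO values below are a description, with no test, while comparisons of the knockout clones with the control line are tested. RNA was sequenced from 11 libraries of 3 lines: ΔUNG and ΔUNG_2, which are clones with a knockout of UNG (uracil-DNA glycosylase, which removes uracil from DNA), and a Cas9 control line with the wild-type genotype. Each line received either 5 µM of AZD6738 (ATRi), an inhibitor of the replication stress kinase ATR, or the vehicle DMSO, for 48 h. ΔUNG ATRi, ΔUNG DMSO, ΔUNG_2 DMSO, Cas9 control ATRi and Cas9 control DMSO have 2 libraries each, and ΔUNG_2 ATRi has 1. A clone can differ from the control line in more than the knocked-out gene, and clone and genotype cannot be told apart here. The labels call the libraries biological replicates but do not say what separates them, so the p-values speak only of variation between the sequenced libraries.

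In mice, the embryonic genome is first switched on strongly at the two-cell stage, when the homeodomain factor Dux and a set of multicopy gene families are transcribed for a short time. The same genes are silent in most cells and come on in a small, changing share of embryonic stem cells, the two-cell-like cells. Zscan4 proteins carry a SCAN domain and zinc fingers and are known for their part in telomere maintenance in embryonic stem cells. Usp17l genes encode deubiquitinases, which remove ubiquitin from proteins, and PRAME family genes encode leucine-rich repeat proteins of germ line and early embryo. Gm2022 and Gm5039 have no established role, and their longest annotated transcripts match that of Eif1a, a translation initiation factor gene, at 94.9% of 434 aligned bases and 87.1% of 1022 aligned bases.

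Libraries held 45692790 to 74973328 clean reads, and the expression values rested on 17014697 to 28464757 fragments per library. Values are FPKM, fragments scaled to gene length and library depth, and whole fragments could be recovered from them. FPM below are fragments per 1000000, not scaled to gene length. A gene of 1 kb with no fragment could still have had up to 3, equal to 0.105 to 0.176 FPKM, a limit that covers counting error only. All 10 markers of melanocytes were present, summing to 7937 to 10037 FPKM under ATRi and 7477 to 9044 FPKM under DMSO. Of 14 markers of pluripotent cells, 4 were listed, at no more than 2.69 FPKM in any library, and the others, among them Pou5f1, Nanog and Sox2, were not analysed here. Of 19 markers of germ cells, 5 were listed, with a summed level of 0.589 to 1.18 FPKM under ATRi and 0.447 to 0.9 FPKM under DMSO. Ung, the targeted gene, had 1.27 and 0.675 FPKM in ΔUNG ATRi, 1.39 and 0.774 FPKM in ΔUNG DMSO, 1.74 FPKM in ΔUNG_2 ATRi, 2.01 and 1.78 FPKM in ΔUNG_2 DMSO, 2.56 and 3 FPKM in Cas9 control ATRi and 2.86 and 2.48 FPKM in Cas9 control DMSO. An RNA level does not show whether a knockout removed the protein.

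With the exception of Pramef8, the genes were at or near 0 in every DMSO library and between 0.722 and 4.14 FPKM in every ATRi library. Zscan4d lies on chromosome 7, at 11161374 to 11166159 of GRCm38. It had 1.33 and 0.822 FPKM in ΔUNG ATRi against 0.0744 and 0.0517 FPKM in ΔUNG DMSO. Zscan4d had 1.81 FPKM in the ΔUNG_2 ATRi library and 0 in both ΔUNG_2 DMSO libraries. In the Cas9 control line it had 1.92 and 0.981 FPKM under ATRi against 0.12 and 0.0958 FPKM under DMSO. All 5 ATRi libraries were above all 6 DMSO libraries, as they were for each of the 10 genes and for 13.3% of all listed genes; the genes were chosen on these values. For Zscan4d, the replicates of a line lay as far apart as the lines did. In fragments scaled to depth, the ATRi level was 16.8 times the DMSO level in ΔUNG (95% counting interval 6.98 to 52.9), at least 57.5 times in ΔUNG_2, where no DMSO library had a fragment and 3 over the group were taken as the limit, and 13.5 times in the Cas9 control line (6.96 to 30). On the log2(FPKM + 0.5) scale, which understates changes of low genes, the differences were 1.47 ± 0.26 in ΔUNG, 2.21 ± 0.32 in ΔUNG_2 and 1.64 ± 0.26 in the control (SE). RNA was taken from whole cultures, so a few cells with much of this RNA and many cells with little cannot be told apart.

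The bases before the annotated start of Zscan4d and of both Usp17l members with a RefSeq promoter are shown because these families were high in the same libraries. Each sequence is 250 bases, 5′ to 3′ on the gene's strand, from RefSeq (GRCm38.p6). Capitals mark TATAAA, the core of a TATA box, and in Zscan4d also a stretch that differs at 1 base from the motif of the factor Dux, which is TGATT and AATCA with 1 free base between them.
Zscan4d, chr7:11166149-11166398, minus strand: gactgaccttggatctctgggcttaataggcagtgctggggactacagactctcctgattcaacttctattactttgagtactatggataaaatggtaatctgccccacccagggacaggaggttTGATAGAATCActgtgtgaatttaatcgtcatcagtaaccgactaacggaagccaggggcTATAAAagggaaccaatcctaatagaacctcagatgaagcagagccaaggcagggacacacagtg
Usp17ld, chr7:103252506-103252755, minus strand: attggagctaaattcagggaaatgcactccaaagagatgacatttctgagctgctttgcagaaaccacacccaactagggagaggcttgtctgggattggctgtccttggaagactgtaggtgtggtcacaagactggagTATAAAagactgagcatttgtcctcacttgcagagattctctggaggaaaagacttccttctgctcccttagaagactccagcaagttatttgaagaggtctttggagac
Usp17lb, chr7:104842584-104842833, minus strand: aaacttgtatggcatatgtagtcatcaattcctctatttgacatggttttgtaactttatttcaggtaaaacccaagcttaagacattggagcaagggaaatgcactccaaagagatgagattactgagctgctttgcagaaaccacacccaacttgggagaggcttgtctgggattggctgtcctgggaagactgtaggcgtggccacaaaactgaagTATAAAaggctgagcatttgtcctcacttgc
Both Usp17l sequences were identical at 94.2% of the 156 bases that aligned. TATAAA began at -65 from the start in Zscan4d, at -110 in Usp17ld and at -31 in Usp17lb, and was found on either strand in 13.6% of the 32851 RefSeq promoters of 300 bases (250 before and 50 after the start). The Dux motif with no mismatch was in none of the 5 member promoters and in 0.0335% of all promoters. With 1 mismatch allowed, a search added after seeing the data, it was in Zscan4d, at -125, and in 0.734% of all promoters. The same letters lay in the promoters of the Zscan4 copies Zscan4b, Zscan4c and Zscan4f, whose 250 bases were 96.8% to 97.5% identical to that of Zscan4d over the aligned part, so the 4 matches are not independent. TGCACAC, a motif of Zscan4 proteins found in 4.4% of all promoters, and GGATTA, a motif of paired-like homeobox factors found in 7.06%, were in none of the 5, on either strand. The promoters of Gm12794 and Pramef25, listed in RefSeq as Pramel19 and Pramel16, held none of these motifs. A match is a string of letters and not a shown binding site.

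The Usp17l genes lie on chromosome 7. Usp17le, from 104768049 to 104777470, had the highest single value of the 9 low genes, 4.14 FPKM. It had 2.27 and 2.36 FPKM in ΔUNG ATRi against 0 and 0.0887 FPKM in ΔUNG DMSO, 3.05 FPKM in ΔUNG_2 ATRi against 0 and 0.0813 FPKM in ΔUNG_2 DMSO, and 3.91 and 4.14 FPKM in Cas9 control ATRi against 0.11 and 0.0548 FPKM in Cas9 control DMSO. Its replicates under ATRi stood close together and the lines stood apart, with ΔUNG lowest and the control highest. The ATRi to DMSO ratio was 53.3 in ΔUNG (18 to 261), 84.9 in ΔUNG_2 (28.4 to 417) and 48.9 in the control (22.3 to 134), intervals that overlap widely. Usp17ld, from 103249737 to 103252505, had 0.722 and 0.757 FPKM in ΔUNG ATRi against 0.0567 and 0.0887 FPKM in ΔUNG DMSO, 1.72 FPKM in ΔUNG_2 ATRi against 0.0646 and 0 FPKM in ΔUNG_2 DMSO, and 1.38 and 1.25 FPKM in Cas9 control ATRi against 0 in both Cas9 control DMSO libraries. Usp17lb, from 104840257 to 104842603, had 0.92 and 1.14 FPKM in ΔUNG ATRi, 1.74 FPKM in ΔUNG_2 ATRi, and 0 in all 4 DMSO libraries of both clones. In the Cas9 control line Usp17lb had 0.855 and 1.17 FPKM under ATRi against 0.175 and 0.0348 FPKM under DMSO. The value of 0.175 FPKM was the highest DMSO value of the 9 genes and rested on 5 fragments. For none of these 3 genes did an ATRi library reach down to the level of any DMSO library. The same held for 13.3% of all listed genes, and the members were chosen on these values. Over all lines the ratio was 33.2 (16.6 to 77.6) for Usp17ld and 33.7 (15.2 to 92.8) for Usp17lb.

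Gm2022 and Gm5039 lie on chromosome 12. Gm2022, from 87895370 to 87895804, was at 0 in all 6 DMSO libraries. It had 1.59 and 3.67 FPKM in ΔUNG ATRi, 3.11 FPKM in ΔUNG_2 ATRi and 1.62 and 1.26 FPKM in Cas9 control ATRi. The gene is 435 bases long, so these values rest on 49 fragments in ΔUNG, 27 in ΔUNG_2 and 35 in the control, and the ΔUNG replicates stood far apart. Gm5039, from 88320122 to 88324026, had 1.07 and 1.69 FPKM in ΔUNG ATRi, 1.19 FPKM in ΔUNG_2 ATRi, and 0 in all 4 DMSO libraries of both clones. In the Cas9 control line it had 1.23 and 1.85 FPKM under ATRi against 0.0588 and 0 FPKM under DMSO. The ATRi libraries of the 3 lines overlapped for Gm5039. Both genes together had 423 fragments under ATRi against 2 under DMSO over all lines, a depth-scaled ratio of 203 (56 to 1685).

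The PRAME family members split into 3 genes that were near 0 under DMSO and 1 that was not. Gm12794 lies on chromosome 4, at 101940407 to 101943183. It had 2.05 and 3.04 FPKM in ΔUNG ATRi against 0 in both ΔUNG DMSO libraries, 2.66 FPKM in ΔUNG_2 ATRi against 0.059 and 0 FPKM in ΔUNG_2 DMSO, and 3.75 and 2.87 FPKM in Cas9 control ATRi against 0.15 and 0 FPKM in Cas9 control DMSO. Its neighbour Gm12800, from 101909121 to 101911908, had 3.3 and 1.78 FPKM in ΔUNG ATRi against 0.0387 and 0 FPKM in ΔUNG DMSO, 2.31 FPKM in ΔUNG_2 ATRi against 0 in both ΔUNG_2 DMSO libraries, and 3.11 and 2.79 FPKM in Cas9 control ATRi against 0.0375 and 0.112 FPKM in Cas9 control DMSO. In the ΔUNG ATRi libraries the order of Gm12794 and Gm12800 changed between replicates. Their transcripts are 96.6% identical, and 34.6% of the 150-base stretches of Gm12794 occur unchanged in Gm12800, so reads of one can be counted for the other. Pramef25 lies on chromosome 4, at 143948580 to 143951016. It had 1.32 and 1.00 FPKM in ΔUNG ATRi against 0 and 0.105 FPKM in ΔUNG DMSO, 1.52 FPKM in ΔUNG_2 ATRi against 0 in both ΔUNG_2 DMSO libraries, and 1.88 and 1.56 FPKM in Cas9 control ATRi against 0.0648 and 0 FPKM in Cas9 control DMSO. For these 3 genes, too, no ATRi library reached down to a DMSO library. This was so for 13.3% of all listed genes, and the members were chosen on these values. Summed over all lines, the ratio of these 3 genes was 75.7 (46.4 to 133).

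Pramef8, on chromosome 4 from 143412426 to 143421091, was expressed without ATRi. It had 6.13 and 7.58 FPKM in ΔUNG ATRi against 4.83 and 5.74 FPKM in ΔUNG DMSO, 7.06 FPKM in ΔUNG_2 ATRi against 4.23 and 5.04 FPKM in ΔUNG_2 DMSO, and 6.33 and 6.2 FPKM in Cas9 control ATRi against 5.49 and 5.25 FPKM in Cas9 control DMSO. The lowest ATRi value, 6.13 FPKM, was above the highest DMSO value, 5.74 FPKM, a narrow gap beside the spread within lines. The ratios were 1.3 in ΔUNG (1.19 to 1.43), 1.54 in ΔUNG_2 (1.38 to 1.71) and 1.17 in the control (1.07 to 1.27), far below those of the other members. None of its 3737 stretches of 150 bases occurs in a transcript of another gene, and its transcript is 74.8% identical to that of Pramef25.

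**Figure D1:**
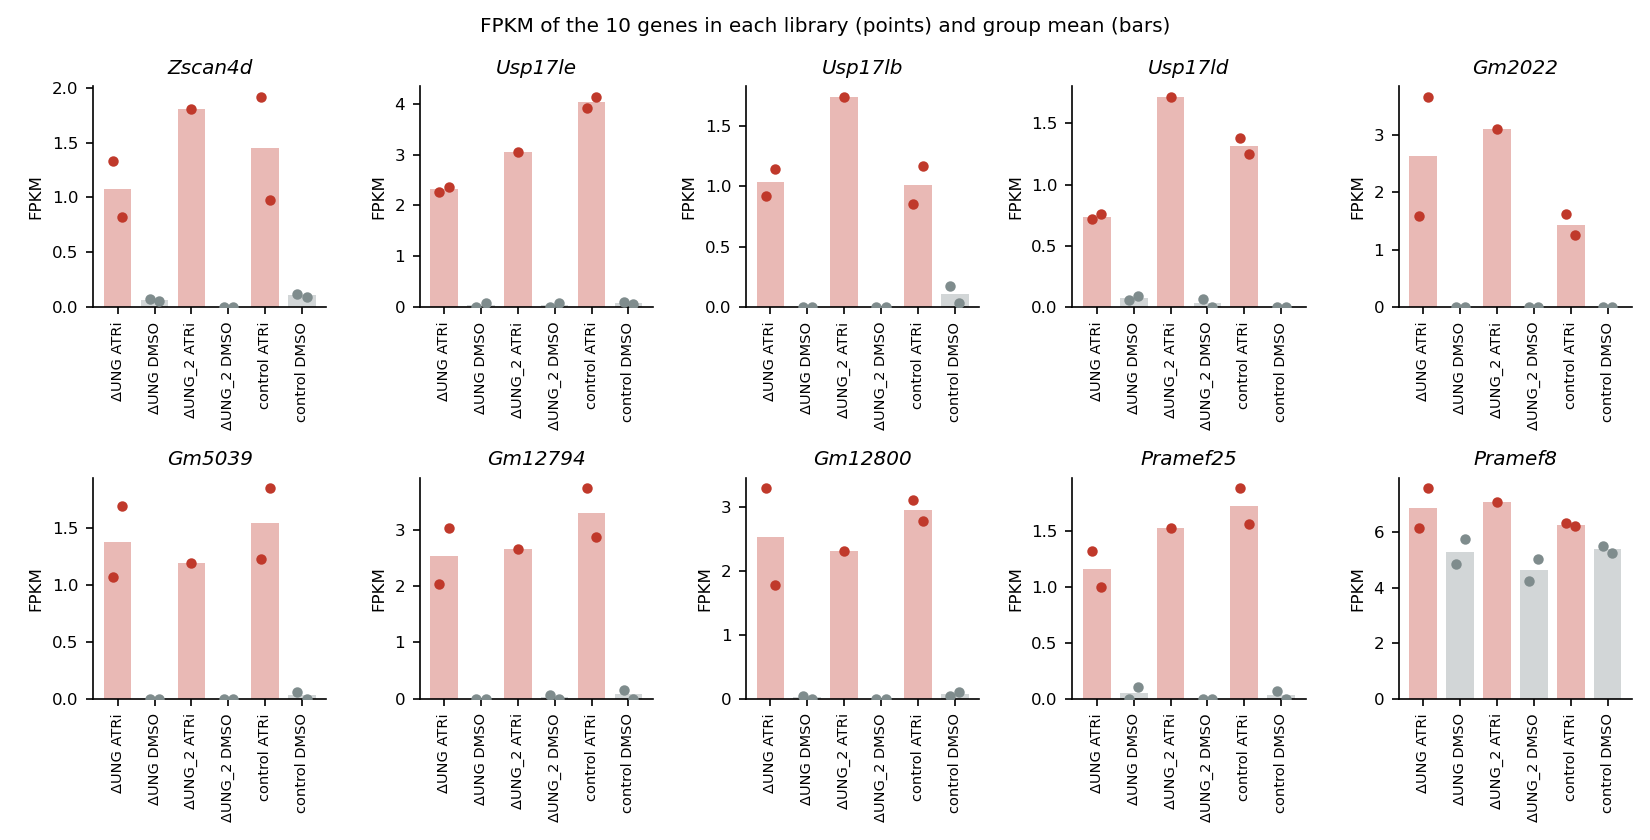
FPKM of the 10 genes, with 1 point per library and bars for group means, ATRi in red and DMSO in grey, for ΔUNG, ΔUNG_2 and the Cas9 control line; the FPKM axes differ between panels. The 9 genes without Pramef8 are at no more than 0.175 FPKM in the DMSO libraries, while Pramef8 is between 4.23 and 5.74 FPKM there.

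**Figure D2:**
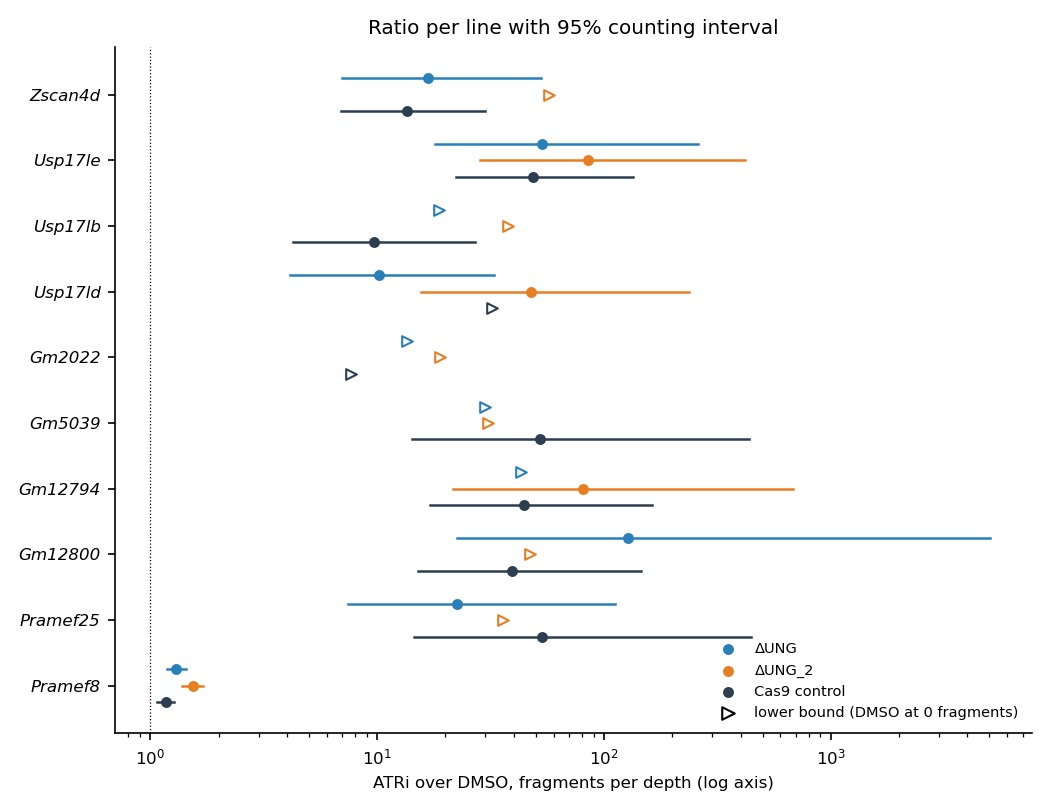
Ratio of ATRi to DMSO fragments, scaled to depth, for each gene and line on a log axis, with 95% counting intervals as bars; open triangles are lower bounds where no DMSO library of the line had a fragment. The ratios of Pramef8 are 1.17 to 1.54, and the intervals of the other genes are wide because few DMSO fragments were counted.

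Summed over the 9 genes without Pramef8, levels in FPM were 23.1 and 23.3 in ΔUNG ATRi against 0.338 and 0.646 in ΔUNG DMSO, 29.6 in ΔUNG_2 ATRi against 0.214 and 0.162 in ΔUNG_2 DMSO, and 32.3 and 29.6 in Cas9 control ATRi against 1.26 and 0.544 in Cas9 control DMSO. The ATRi to DMSO ratio of the sum was 47.4 in ΔUNG (29.5 to 81.7), 155 in ΔUNG_2 (78.4 to 362) and 34.5 in the control (24.4 to 50.2). Of the 33 control DMSO fragments, 23 came from replicate 1, and without that library the control ratio was 57 (30.9 to 119). The interval of ΔUNG_2 does not meet that of the control with both libraries, and overlaps it without replicate 1. The intervals cover counting error only, and the DMSO side rests on 17, 8 and 33 fragments in ΔUNG, ΔUNG_2 and the control. The difference between lines in this ratio was not tested, because the same values chose the genes. The median log2 difference of the 10 genes was 1.75 in ΔUNG, 2.18 in ΔUNG_2 and 1.94 in the control, beside -0.02, -0.00 and -0.01 for all 11323 genes tested; these medians depend on the pseudocount added before taking logs.

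Copies within a family share reads, so levels were also summed over families. The 9 Zscan4 genes and pseudogenes of the table summed to 17.5 and 14.6 FPM in ΔUNG ATRi against 0.282 and 0.176 in ΔUNG DMSO, 20.4 in ΔUNG_2 ATRi against 0.128 and 0.0538 in ΔUNG_2 DMSO, and 27.7 and 21.6 in Cas9 control ATRi against 1.36 and 0.381 in Cas9 control DMSO. Zscan4d shares 13% of its 150-base stretches with 8 other Zscan4 entries and is 94.1% to 97.2% identical to them. The 5 Usp17l genes summed to 10.5 and 11.9 FPM in ΔUNG ATRi, 16.1 in ΔUNG_2 ATRi and 16.8 and 17.9 in Cas9 control ATRi, and to 0.113 to 0.71 over the DMSO libraries. Usp17ld shares 36.1% of its stretches with Usp17lc and Usp17le, whereas Usp17le shares 0.806% and Usp17lb 2.27% of theirs with other genes. How reads shared by copies were counted is not given in the sources used here, so the sums too may hold such reads more than once or lack them.

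**Figure D3:**
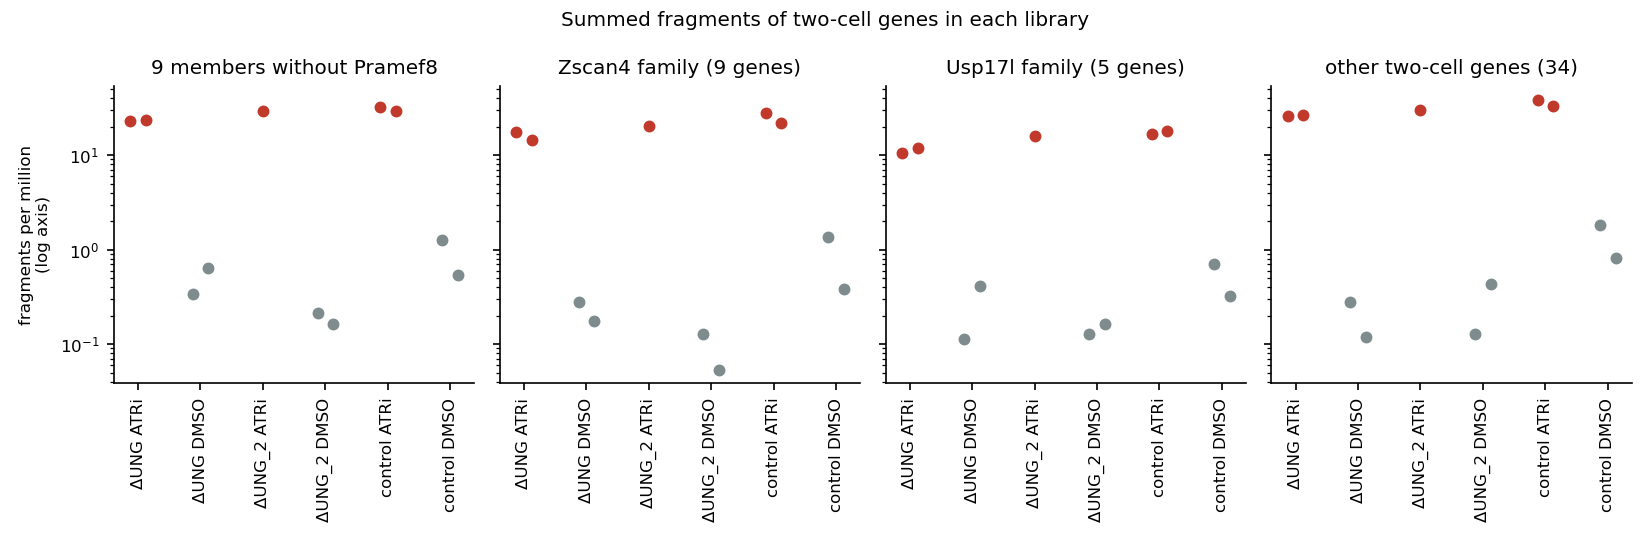
Summed FPM in each library, on a log axis, for the 9 genes without Pramef8, the 9 Zscan4 entries, the 5 Usp17l genes and 34 listed genes of the two-cell stage that are not among the 10; ATRi is red and DMSO grey. In every panel all ATRi libraries lie above all DMSO libraries, and the sums of the 34 genes in the Cas9 control DMSO libraries, 1.8 and 0.816, lie above those of both clones.

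The genes sit in clusters of related genes, and the neighbours were examined out to 1 Mb on each side. Of 44 neighbours that belong to the same families or are predicted genes, 34 were higher in all 5 ATRi libraries than in all 6 DMSO libraries and 0 were lower. Of all listed genes, 13.3% were higher and 12.9% lower in this way. Among the 44, 18 were at 0 in all DMSO libraries, so these could not have been lower. Of the 48 other neighbours, 2 were higher, the retinal reductase gene Dhrs3 and the lysosomal protease gene Tpp1, both named after their values were seen, and 6 were lower. Families were assigned by symbol, so the 48 include Pramel1, a PRAME family gene beside Pramef8 that had 0.0898 FPKM in ΔUNG_2 ATRi and 0 in every other library. Around Zscan4d all 9 related or predicted neighbours were higher, and around Gm2022 and Gm5039 15 of 16 were, against 0 of 12 other neighbours there. Near Usp17l, 2 of 6 related or predicted neighbours were higher, which are Usp17la and Usp17lc, and 1 of 26 others. Some of the 44 share reads with the members or with each other, so they are not independent observations.

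Among these neighbours, Gm18983 on chromosome 12 had 2.52 and 2.09 FPKM in ΔUNG ATRi, 3.29 FPKM in ΔUNG_2 ATRi and 3.32 and 2.22 FPKM in Cas9 control ATRi, and 0.02 and 0.0199 FPKM in Cas9 control DMSO, with 0 in the DMSO libraries of the clones. Gm21939 on the same chromosome had 1.34 to 2.62 FPKM over the ATRi libraries and 0 to 0.0981 FPKM over the DMSO libraries. Zscan4-ps3, named as a Zscan4 pseudogene, had 1.06 to 2.78 FPKM under ATRi and 0 to 0.0719 FPKM under DMSO. Zscan4c, a copy used as a reporter of two-cell-like cells, had 0.892 and 1.04 FPKM in ΔUNG ATRi, 0.507 FPKM in ΔUNG_2 ATRi and 1.67 and 1.14 FPKM in Cas9 control ATRi, and was at 0 in the DMSO libraries of both clones. Its Cas9 control DMSO libraries had 0.048 and 0.0239 FPKM.

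**Figure D4:**
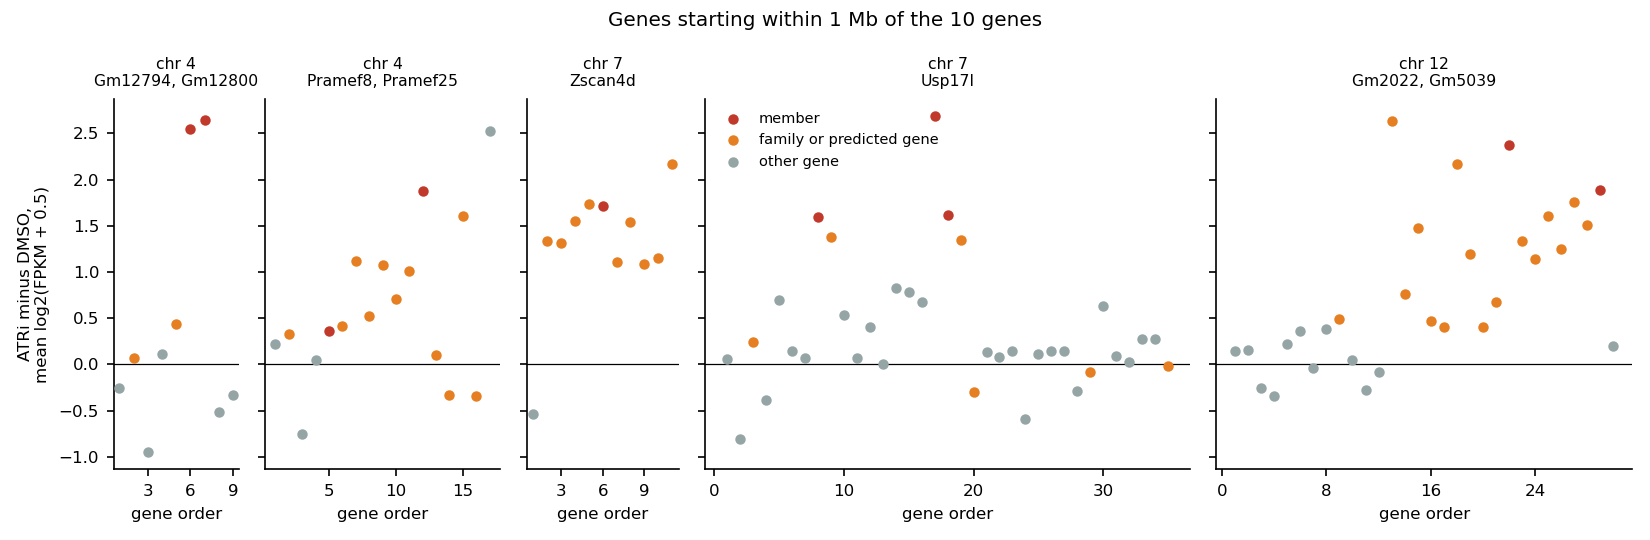
Difference between the mean log2(FPKM + 0.5) of the ATRi and DMSO libraries for 102 genes that start within 1 Mb of a member, in their order along 5 chromosome regions. Members and related or predicted genes are mostly above 0, with medians of 1.88 and 1.10, and the other genes scatter around 0, with a median of 0.10.

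Over the whole table, 34 genes were under 0.2 FPKM in every DMSO library and over 0.5 FPKM in every ATRi library, and 0 genes showed the opposite. The limits lie between the DMSO and ATRi values of the 9 low members, at most 0.175 and at least 0.722 FPKM. These 9 were chosen on the same values, so their place among the 34 is no result. Besides 9 members, the 34 held 9 other genes known from the two-cell stage, among them Tcstv1, and 5 further related or predicted neighbours. The other 11 included Csn3, a casein gene, and Tnfrsf23, a decoy receptor for TRAIL, both named after their values were seen.

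A list of 71 other genes of the two-cell stage shows how far the pattern extends. Of these, 34 were listed in the table and 37 were not analysed here. The list counts symbols and holds both Dux, among the 37, and Duxf3, among the 34. In 28 of the 34, all 5 ATRi libraries were above all 6 DMSO libraries, beside 13.3% of all listed genes, and in 0 they were below. The 19 that were at 0 in all DMSO libraries had reads only under ATRi and could not have been below. The 37 genes not listed do not enter this share. Of the 34, 22 start within 1 Mb of a member and are mostly copies of the same families, and 21 of these were higher, as were 7 of the 12 that lie elsewhere. Among the 7, AF067061, B020031M17Rik, Tcstv1 and Tcstv3 lie close together on chromosome 13, with starts from 119893388 to 120316878, so they are not separate places. Only 42 of all listed genes were at 0 in every library, so the table holds few genes that no library read. Among genes at 0 in all DMSO libraries, 15 of 19 from the list were above 0 in all ATRi libraries, beside 14.2% of the 436 such genes in the table. The highest level in the list was 2.05 FPKM under ATRi and 0.122 FPKM under DMSO.

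Duxf3, the Dux copy in the table and an activator of this set of genes, had 0.367 and 0.186 FPKM in ΔUNG ATRi, 0.26 FPKM in ΔUNG_2 ATRi and 0.221 and 0.339 FPKM in Cas9 control ATRi, and was at 0 in all 6 DMSO libraries. Over all lines this is 87 fragments against 0, at least 27.9 times the DMSO level with 3 fragments taken as its limit. Zfp352, a zinc finger gene of the two-cell embryo, had 0.283 and 0.16 FPKM in ΔUNG ATRi, 0.265 FPKM in ΔUNG_2 ATRi and 0.571 and 0.449 FPKM in Cas9 control ATRi, and 0 in all DMSO libraries. Tcstv3, another gene of that stage, had 0.826 and 0.292 FPKM in ΔUNG ATRi, 0.515 FPKM in ΔUNG_2 ATRi and 0.902 and 0.844 FPKM in Cas9 control ATRi, and was likewise at 0 under DMSO. These 3 genes were chosen after their values were seen. Tdpoz4, Lmx1a and Pramef17, also from the list, were at 0 in 2 or more ATRi libraries.

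Only 2 of the 34 genes reached the mean of 0.5 FPKM needed for a test. Gm13119, on chromosome 4 near Pramef25, passed in all 3 lines, with 1.5 ± 0.20 in ΔUNG, 1.76 ± 0.24 in ΔUNG_2 and 1.62 ± 0.20 in the control on the log2 scale (limma adjusted p = 0.000428, 0.000667 and 0.000324). It reached the filter through its ATRi libraries, so the test adds little to its values of 0.898 to 1.2 FPKM under ATRi and 0 to 0.0807 FPKM under DMSO. It is also 1 of the 5 genes with which Pramef25 shares 150-base stretches. The other tested gene, Gm2056 on chromosome 12, had 2.05 and 0.314 FPKM in ΔUNG ATRi, 0.807 FPKM in ΔUNG_2 ATRi and 1.94 and 0.756 FPKM in Cas9 control ATRi, and 0 in all DMSO libraries. Its log2 differences were 1.53 ± 0.47 in ΔUNG, 1.39 ± 0.58 in ΔUNG_2 and 1.81 ± 0.47 in the control, and it did not pass in ΔUNG_2. Gm2056, too, reached the filter through its ATRi libraries, so its test adds little to these values.

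The knockout clones were then set against the control line, a contrast that did not choose the genes, although it uses the same libraries. Under DMSO, limma called 0 of the 10 genes in ΔUNG and 0 in ΔUNG_2, beside 8.72% and 8.2% of all 11323 genes tested, and 0 of the 10 had an unadjusted p under 0.05 in either clone. The 9 genes other than Pramef8 had at most 0.175 FPKM under DMSO, so the added 0.5 FPKM left little room for a call. Their missing calls were nearly settled beforehand and do not show that the lines were alike. In summed fragments, the 9 genes had 0.338 and 0.646 FPM in ΔUNG DMSO against 1.26 and 0.544 in Cas9 control DMSO, which overlap, a ratio of 0.544 (0.284 to 1). In ΔUNG_2 DMSO they had 0.214 and 0.162 FPM, below both control libraries, a ratio of 0.212 (0.0847 to 0.468). Without Cas9 control DMSO replicate 1 these ratios were 0.899 (0.389 to 2.2) in ΔUNG and 0.351 (0.12 to 0.987) in ΔUNG_2.

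The 34 listed genes of the two-cell stage, many of them copies of the members, had lower sums in both clones. They had 0.282 and 0.118 FPM in the ΔUNG libraries under DMSO, 0.128 and 0.431 FPM in those of ΔUNG_2, and 1.8 and 0.816 FPM in those of the Cas9 control line. Every library of the clones was below both control libraries, with ΔUNG at 0.154 (0.0588 to 0.342) and ΔUNG_2 at 0.201 (0.0939 to 0.392) of the control level. These are 7, 11 and 48 fragments, of which 33 came from Cas9 control DMSO replicate 1. An exact permutation test of 2 against 2 libraries cannot give a two-sided p below 0.333, so these sums were not tested, and both clones share the same 2 control libraries. Single libraries moved the shares by over 1.5 times: the ΔUNG share was 0.0899 (0.0106 to 0.343) without ΔUNG DMSO replicate 1 and 0.247 (0.0851 to 0.643) without Cas9 control DMSO replicate 1. The ΔUNG_2 share was 0.329 (0.135 to 0.702) without ΔUNG_2 DMSO replicate 1, 0.0982 (0.0196 to 0.305) without ΔUNG_2 DMSO replicate 2 and 0.321 (0.134 to 0.749) without Cas9 control DMSO replicate 1.

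Under ATRi, limma called 1 of the 10 genes in ΔUNG and 0 in ΔUNG_2 against the control line, beside 6.14% and 5.01% of all genes tested. The call was Usp17le, with 2.31 ± 0.0668 FPKM in ΔUNG ATRi and 4.02 ± 0.162 FPKM in Cas9 control ATRi (SD, n = 2 each), a log2 difference of -0.68 ± 0.17 (SE, limma adjusted p = 0.0429). Usp17ld had -0.55 ± 0.18 (limma adjusted p = 0.117) and did not pass. The Usp17le call was lost without any 1 of the 4 libraries compared, with log2 differences of -0.66 and -0.71 when ΔUNG ATRi replicate 1 or 2 was left out (limma adjusted p = 0.141 and 0.168) and of -0.72 and -0.65 when the first or the second Cas9 control ATRi library was (limma adjusted p = 0.137 and 0.142). With a block for the replicate number its limma adjusted p was 0.0593. In ΔUNG_2 ATRi, with its single library at 3.05 FPKM, the difference of Usp17le was -0.35 ± 0.20 (limma adjusted p = 0.358).

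The median over the 10 genes was -0.25 in ΔUNG and 0.01 in ΔUNG_2 against the control line under ATRi, beside -0.01 and 0.00 for all genes tested. The SE here, and those of Usp17le and Usp17ld above, pool the spread of all groups, and 9 of the genes hardly varied under DMSO. They do not measure the spread between ATRi libraries, where Zscan4d had 1.92 and 0.981 FPKM in Cas9 control ATRi. Zscan4d was at -0.28 ± 0.26 in ΔUNG and 0.29 ± 0.32 in ΔUNG_2, Gm5039 at -0.12 ± 0.23 and -0.26 ± 0.28, Gm12794 at -0.33 ± 0.22 and -0.26 ± 0.27, and Gm12800 at -0.23 ± 0.23 and -0.29 ± 0.29. Gm2022 was at 0.61 ± 0.29 in ΔUNG and 0.91 ± 0.35 in ΔUNG_2 against the control line, Usp17lb at 0.02 ± 0.21 and 0.57 ± 0.26, Pramef25 at -0.42 ± 0.20 and -0.13 ± 0.25, and Pramef8 at 0.11 ± 0.12 and 0.16 ± 0.15. None of these 8 genes passed (limma adjusted p from 0.169 to 0.969). Summed over the 9 genes, ΔUNG ATRi had 0.748 of the control level (0.691 to 0.81), with both ΔUNG libraries below both control libraries, and ΔUNG_2 ATRi had 0.957 (0.87 to 1.05). For the 9 Zscan4 entries the shares were 0.647 (0.589 to 0.71) and 0.824 (0.736 to 0.921). Replicates differed by more than counting error over the 9 genes, by a chi-square divided by its degrees of freedom of 4.56 in ΔUNG ATRi and 3.98 in Cas9 control ATRi (1 is counting error alone), so these intervals are too narrow for a comparison of lines.

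Genes known in mouse cells to restrain or drive the two-cell state were read from a list of 30, of which 26 were tested. In ΔUNG, 11 fell, 1 rose and 14 did not pass; in ΔUNG_2, 12 fell, 2 rose and 12 did not pass; in the Cas9 control line, 10 fell, 2 rose and 14 did not pass. Beside this, 19.4%, 17.3% and 16.8% of all tested genes fell and 16.5%, 18.1% and 16.8% rose. The list's medians were -0.17, -0.26 and -0.15, beside -0.02, -0.00 and -0.01 for all genes. It mixes genes that restrain with genes that drive the state, so its falls and rises have no single meaning. Trim28 was at -0.00 ± 0.07 in ΔUNG, 0.27 ± 0.08 in ΔUNG_2 and 0.21 ± 0.07 in the control. Setdb1, Kdm1a, Ehmt2, Max and Morc3 were called in no line. Trim28 and these genes were named after their values were seen.

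In all 3 lines 8 of the 26 fell and 1 rose, beside 9.74% of all tested genes that fell and 9.8% that rose in all 3. Chaf1b and Chaf1a, subunits of the chromatin assembly factor CAF-1 whose loss in mouse embryonic stem cells is known to bring on two-cell-like cells, fell by 1.39 and 1.09 on the log2 scale in ΔUNG, by 1.00 and 0.68 in ΔUNG_2 and by 0.78 and 0.52 in the control. Chaf1b had 6.22 and 4.74 FPKM in ΔUNG ATRi against 16.3 and 13.9 FPKM in ΔUNG DMSO, 6.94 FPKM in ΔUNG_2 ATRi against 13.6 and 15.4 FPKM in ΔUNG_2 DMSO, and 7.68 and 6.66 FPKM in Cas9 control ATRi against 12.4 and 12.9 FPKM in Cas9 control DMSO. Uhrf1 and Dnmt1, which keep DNA methylation through replication, fell by 1.2 and 0.84 in ΔUNG, by 0.81 and 0.64 in ΔUNG_2 and by 0.50 and 0.53 in the control. Rif1, a factor of replication timing and heterochromatin, fell by 0.55 in ΔUNG, 1.01 in ΔUNG_2 and 0.73 in the control. For these 5 genes the limma adjusted p was at most 0.00361 in every line. Replication genes moved with them: Mcm2 to Mcm7 and Pcna, chosen after this fall was seen, all 7 fell in each line, with medians of -0.92 in ΔUNG, -0.79 in ΔUNG_2 and -0.64 in the control, and their part in the fall of the 5 genes was not tested.

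Rcor1 and Hdac2, of a corepressor complex, and Smchd1, a silencer of imprinted and X-linked genes, fell by 0.24 to 0.63 over the 3 lines (limma adjusted p at most 0.0203). Trp53, which encodes p53, known to switch on Dux after DNA damage in mouse embryonic stem cells, rose by 0.37 ± 0.08 in ΔUNG, 0.45 ± 0.09 in ΔUNG_2 and 0.37 ± 0.08 in the control (limma adjusted p = 0.00499, 0.00595 and 0.00559). Dppa2 and Dppa4, activators of Dux in mouse embryonic stem cells, were too low for a test, at no more than 0.223 FPKM in any library. Dppa2 was at 0 in all DMSO libraries. Under ATRi it had 0.223 and 0.112 FPKM in ΔUNG, 0.0615 FPKM in ΔUNG_2 and 0 and 0.0149 FPKM in the Cas9 control line. The ATRi and DMSO libraries overlapped for Dppa4, with 20 fragments against 10. After rescaling the libraries to the same FPKM sum, 5 of the 8 falls and 0 rises were still called in all 3 lines; Hdac2, Rcor1, Smchd1 and Trp53 each lost at least 2 of its 3 calls with folds of similar size: over the lines that lost the call, Hdac2 was at -0.31 to -0.49, Rcor1 at -0.40 and -0.48, Smchd1 at -0.51 to -0.66 and Trp53 at 0.31 to 0.41 (limma adjusted p from 0.0516 to 0.174). Single libraries also decided some of these calls. In the Cas9 control line, Hdac2 was at -0.23 without Cas9 control ATRi replicate 2 and at -0.24 and -0.25 without the first or the second Cas9 control DMSO library (limma adjusted p = 0.0727, 0.0925 and 0.088), Smchd1 at -0.33 without Cas9 control ATRi replicate 2 and at -0.42 without Cas9 control DMSO replicate 2 (0.0774 and 0.0764), and Trp53 at 0.33 without Cas9 control DMSO replicate 2 (0.0503). In ΔUNG, Smchd1 was at -0.41 without ΔUNG ATRi replicate 1 and at -0.42 without ΔUNG DMSO replicate 2 (limma adjusted p = 0.0508 and 0.0524).

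**Figure D5:**
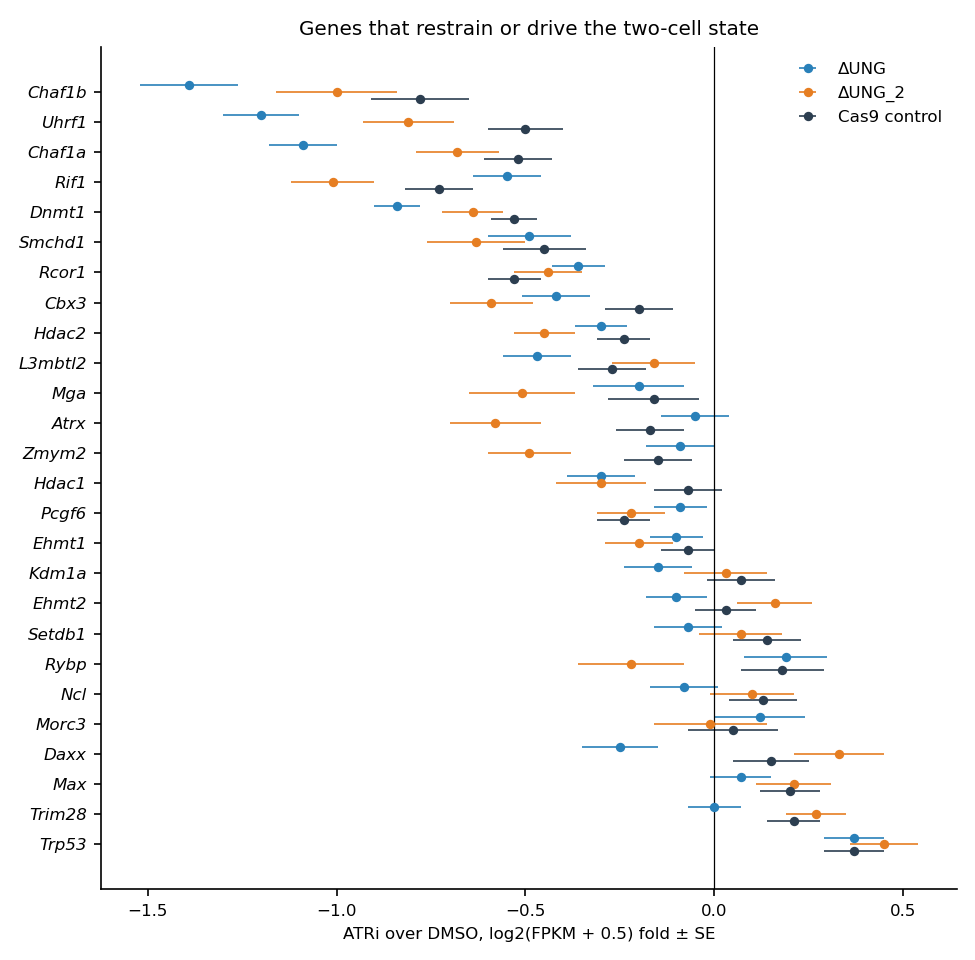
Log2(FPKM + 0.5) fold change of ATRi over DMSO, with SE as bars, for 26 genes known to restrain or drive the two-cell state, in ΔUNG, ΔUNG_2 and the Cas9 control line. Chaf1b, Uhrf1, Chaf1a, Rif1 and Dnmt1 lie at -0.50 or lower in every line, and Trp53 lies between 0.37 and 0.45.

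Among the genes whose levels over the 11 libraries were most like those of the 10 genes were Ccdc9b (Pearson r = 0.995), Ehd4, an endosomal recycling gene (0.994), Snap47 (0.993), Gm13119 (0.993) and Gm18983 (0.993), by their correlation with the mean standardized log2(FPKM + 0.5) of the members. The members themselves stood at 0.967 to 0.991, except Pramef8 at 0.865. Unlike 9 of the members, Ehd4 was well expressed without ATRi. Ehd4 had 25.3 and 27 FPKM in ΔUNG ATRi against 14.7 and 15.2 FPKM in ΔUNG DMSO, 32.7 FPKM in ΔUNG_2 ATRi against 14.3 and 13.6 FPKM in ΔUNG_2 DMSO, and 28.4 and 27.7 FPKM in Cas9 control ATRi against 15.3 and 14.8 FPKM in Cas9 control DMSO. The likeness mostly records the split between ATRi and DMSO libraries that all these genes share, and the 11 points also share their libraries.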

How the data were processed

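RNA of B16F10 melanoma cells was measured in 11 libraries, grouped by the sample titles. The authors deposited FPKM per gene and library. HISAT2 is named in the submitters' processing notes, with no version; how reads were counted, and against which build, is not given in the sources used here. The deposited read table gives read counts and the percent of bases at Q30 per library, and 1 row of it, for a library not analysed here, was not used. Gene coordinates are those of the deposited table and match GENCODE M21 (GRCm38) for all 10 members.

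Fragments were recovered from FPKM and the deposited gene lengths, and came out whole, within a tolerance of 0.01, for 100% of values. Ratios of fragments have exact binomial intervals at 95%. Values of log2(FPKM + 0.5) were tested in limma 3.58.1 under R 4.3.3, with 1 mean per group over all 11 libraries and an intensity trend, for the 11323 genes whose mean reached 0.5 FPKM. The test was two-sided, with Benjamini-Hochberg adjustment over all genes tested and a threshold of 0.05. The single library of ΔUNG_2 ATRi takes its spread from the other groups. Each SE pools the spread of all groups, so for genes near 0 under DMSO it does not measure the spread between ATRi libraries. Fitting was tested on simulated data. Transcripts were compared with blastn 2.17.0+, and sequences before gene starts are from RefSeq.

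The members, gene lists and tests were chosen with earlier results of these data known. Genes were named as members, as Ung and Trp53, as related neighbours, as list genes called in all 3 lines, and as the 6 most alike by correlation, of which 1 is not reported here. All 10 members reached the mean of 0.5 FPKM, 9 of them through their ATRi libraries. Alternatives were other pseudocounts, filters and scalings, no trend, only the groups compared, a replicate block, limma-voom on fragments, summed families and leaving out each library. Crossed replicate numbers, summed ratios without single libraries and the motif search with 1 mismatch were added after seeing the data.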

Additional observations from a re-analysis of the deposited data

How the results depend on the processing

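The median log2 difference of the members between ATRi and DMSO, 1.75 in ΔUNG, 2.18 in ΔUNG_2 and 1.94 in the Cas9 control line, stayed above 0 in every alternative run. It was 3.67, 4.23 and 3.82 with a pseudocount of 0.1, 1.14, 1.47 and 1.29 with 1, and 5.57, 6.62 and 5.30 with limma-voom on fragments. With families summed, the median of the family sums was 3.25, 3.37 and 3.38. These sums take in non-members and merge Pramef8 with other Pramef genes, so this is not a median of the members. A larger pseudocount shrinks the fold of genes near 0 by construction, and the same pseudocount shrinks a sum of several genes less. The cause was not tested for limma-voom. A filter at 2 FPKM left only Pramef8 (0.34, 0.56 and 0.20). Without single libraries the range was 1.71 to 1.92 in ΔUNG, 2.18 to 2.18 in ΔUNG_2 and 1.89 to 2.04 in the control; leaving out the only ΔUNG_2 ATRi library gives no value. Members, or family sums where families were summed, called between clone and control under DMSO were 0 in every alternative with all libraries of the compared groups. The same held for ΔUNG_2 under ATRi. The DMSO counts say little, because all members but Pramef8 were near 0 there and could hardly be called. For ΔUNG under ATRi the count of 1 was 0 with a pseudocount of 0.1, the same FPKM sum, the filter at 2 FPKM and summed families. The filter at 2 FPKM removed Usp17le, with a mean of 1.46 FPKM, and summed families merged it into the Usp17l sum, so neither tested it. The count was 2 with no filter or no intensity trend. The cause was not tested for the settings that kept Usp17le.

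Replicate numbers did not pair the libraries (correlations of same-numbered deviations -0.12 to 0.04). With the replicate block, 0 members were called for ΔUNG under ATRi, and 578 genes in place of 695; with the numbers crossed, 0 members and 624 genes were called. Genes called over the whole table fell by more than 1.5 times after rescaling to the same FPKM sum (2319, 2022 and 2002 for ATRi in ΔUNG, ΔUNG_2 and the control, in place of 4059, 4005 and 3805; 323 and 381 for ΔUNG and ΔUNG_2 under DMSO in place of 987 and 928; 276 and 183 under ATRi in place of 695 and 567). There the split of higher and lower calls was 137 and 186 for ΔUNG under DMSO (619 and 368 before), 114 and 267 for ΔUNG_2 (506 and 422), and under ATRi 71 and 205 for ΔUNG (341 and 354) and 42 and 141 for ΔUNG_2 (310 and 257), while the median of all genes moved to -0.11, -0.13, -0.11 and -0.09. With only the groups compared, the count was 385 for ΔUNG under DMSO, and 273 and 153 for ΔUNG and ΔUNG_2 under ATRi. With limma-voom it was 1277 and 1112 there. Without single libraries it was as low as 370, 289, 225 and 272 in the clone comparisons (ΔUNG and ΔUNG_2 under DMSO, then under ATRi) and 2197 for ATRi in the control. Depth limits the DMSO side of the ratios, which rests on 58 fragments of the 9 members over 6 libraries.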
